A study of Mus musculus with 2 samples.

Results

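Testicular macrophages were taken here as barcodes whose mitochondrial genes gave at most 20% of the UMIs (unique molecular identifiers, 1 per captured RNA molecule), and that passed 3 limits on marker sums. The members were thus chosen by the UMI counts of these genes in each barcode. They held at least 10 UMIs of C1qa, C1qb, C1qc, Csf1r, Adgre1, Cd68, Lyz2 and Mrc1 together, at most 182 of the spermatid genes Prm1, Prm2, Tnp1 and Tnp2, and fewer than 60 of the Leydig genes Cyp17a1, Cyp11a1, Star and Insl3. The rule found 257 of 35330 barcodes, 39 in the wild type (WT) library and 218 in the knockout (KO) library. The study compared testes of wild type mice with testes carrying a conditional knockout of Igf2bp1, an RNA-binding protein, with 1 droplet-based (10x Genomics) single-cell RNA library per genotype. Both libraries came from mice aged 8 months. The sources used here do not name the Cre driver, the strain or the number of mice in each library. With 1 library per genotype no test of the genotype is possible. Every interval below is an exact 95% counting interval and covers counting error only, not the spread between cells or between mice.

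Macrophages are the main immune cells of the testis, where they lie among the Leydig cells of the interstitium and along the walls of the seminiferous tubules. In the mouse a pair of populations is known, an interstitial one that carries the mannose receptor Mrc1 with little MHC class II, and a peritubular one that carries MHC class II with little Mrc1. They clear dying cells, present antigen, and are known to support testosterone synthesis and spermatogonia. MHC class II genes are known to be switched on through a promoter module whose X box binds the RFX complex and whose Y box is an inverted CCAAT sequence bound by NF-Y, with CIITA as the co-activator. Chemokine genes such as Cxcl2 are known targets of NF-kappa B.

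The promoters of 3 MHC class II genes and of Cxcl2 are shown because the levels of these genes set macrophages apart from each other in both libraries, and because these windows hold a match. They come from 19 windows of 15 genes that were searched. The sequences are from RefSeq (GRCm38.p6), run 5′ to 3′ on the gene's own strand, and hold 250 bases before and 50 bases after the gene's start. Capitals mark matches, on either strand, to CCAAT, to the X box core (CCTAG, any base, AAC, any base, G) or to the kappa B sequence (GGGA, any 2 bases, TTCC). The H2-Aa window is chr17:34287774-34288073 (minus strand), the H2-Eb1 window chr17:34305617-34305916 (plus), the H2-DMb1 window chr17:34152941-34153240 (plus) and the Cxcl2 window chr5:90903649-90903948 (plus).
H2-Aa: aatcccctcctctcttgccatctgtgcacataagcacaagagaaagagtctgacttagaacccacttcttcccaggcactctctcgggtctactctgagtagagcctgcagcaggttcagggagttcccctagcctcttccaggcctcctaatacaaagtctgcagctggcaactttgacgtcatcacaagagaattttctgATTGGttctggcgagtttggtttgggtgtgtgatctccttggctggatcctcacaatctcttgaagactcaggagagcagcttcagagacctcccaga
H2-Eb1: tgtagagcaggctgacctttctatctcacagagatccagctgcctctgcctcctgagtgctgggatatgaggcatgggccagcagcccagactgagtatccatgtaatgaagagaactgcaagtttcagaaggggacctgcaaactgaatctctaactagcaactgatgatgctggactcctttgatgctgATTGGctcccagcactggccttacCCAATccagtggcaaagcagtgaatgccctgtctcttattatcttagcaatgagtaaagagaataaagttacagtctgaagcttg
H2-DMb1: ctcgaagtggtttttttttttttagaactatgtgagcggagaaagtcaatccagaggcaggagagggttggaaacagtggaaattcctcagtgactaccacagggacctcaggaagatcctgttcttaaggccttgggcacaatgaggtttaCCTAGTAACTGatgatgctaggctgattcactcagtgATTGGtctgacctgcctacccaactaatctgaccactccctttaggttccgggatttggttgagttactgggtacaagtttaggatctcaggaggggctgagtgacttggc
Cxcl2: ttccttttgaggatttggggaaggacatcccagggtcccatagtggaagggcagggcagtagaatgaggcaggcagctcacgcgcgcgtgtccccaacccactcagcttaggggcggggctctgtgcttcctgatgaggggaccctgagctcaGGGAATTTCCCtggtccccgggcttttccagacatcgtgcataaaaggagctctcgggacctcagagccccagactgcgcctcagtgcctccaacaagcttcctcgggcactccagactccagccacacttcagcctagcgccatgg
A CCAAT match lay in all 3 MHC class II windows, starting 48 bases before the start of H2-Aa, 61 before that of H2-DMb1, and 59 and 35 before that of H2-Eb1. CCAAT was found in 37.4% of 32851 promoter windows of the same length, so this match is common. Of the 15 genes searched 6 had one, and the windows shown were picked for holding a match. The X box core was found in the H2-DMb1 window only among these 3, starting 98 bases before the start, and in 0.566% of all windows. The Cxcl2 window held a pair of overlapping kappa B matches on opposite strands, starting 97 and 96 bases before the start, and 1.47% of all windows held one. Of the windows not shown, those of Il1b, Ccl3 and Tnf had no kappa B match, and 1 of the 2 windows of H2-DMa had a CCAAT match, 198 bases before the start. Mrc1 and Pf4, which were higher in macrophages with few MHC class II UMIs, also had CCAAT matches. These matches are letters in a window and were not tested for binding.

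The deposited WT matrix held 17362 barcodes and 121257944 UMIs (median 1242 per barcode), and the KO matrix 17968 barcodes and 98033324 UMIs (median 2097). After the mitochondrial limit 17002 and 17703 barcodes were kept, and no doublet caller was run. The 39 WT macrophages summed to 121316 UMIs (median 2519, range 1345 to 20591) and the 218 KO macrophages to 693159 UMIs (median 2845, range 1259 to 20529), so a WT level has the wider interval. One WT member with 20591 UMIs held 17.0% of all WT macrophage UMIs and stood apart from the rest, and 9 KO members held over 6000 UMIs. The libraries shared 106 barcode sequences, of which 4 were KO members and 0 were WT members.

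Igf2bp1 itself gave 0 UMIs in the macrophages of either library, which allows up to 24.7 CPM (counts per 1000000 UMIs) in WT and 4.33 CPM in KO (3 counts over each group's total). Over all kept barcodes it gave 344 UMIs in WT (2.85 CPM) and 196 in KO (2.01 CPM), so the gene was sparse in both libraries and says little about the deletion. Igf2bp2 gave 0 and 1 UMIs in macrophages. Igf2bp3, the paralog found in germ cells, gave 49.5 CPM (18.2 to 108) in WT and 56.3 CPM (40.0 to 76.9) in KO macrophages. In the lowest decile of barcodes by depth it was at 90.0 and 88.4 CPM, which lies within the WT interval and above the KO one.

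That lowest decile (1722 WT and 1776 KO barcodes, median 968 and 1301 UMIs) served as the measure of free RNA, the RNA that enters every droplet. Its spermatid share was 6.14% in WT and 4.69% in KO, against 2.40% and 2.21% in macrophages. This puts the free RNA in macrophage barcodes at 39.0% and 47.1% of UMIs under 2 assumptions. Macrophages make none of these transcripts, and the decile holds free RNA alone. The decile is made of deposited barcodes, none under 943 (WT) or 1246 UMIs (KO), so the latter was not shown and these values are no upper limit. The gate genes summed to 17.4 CPM in the lowest decile of WT and 104 CPM in that of KO, against 13255 and 12280 CPM in members. Near the limit of 10 gate UMIs, 4 WT and 14 KO members held 10 to 12, while 7 WT and 35 KO barcodes just outside held 7 to 9. The spermatid limit had 2 WT and 8 KO members from 150 UMIs up to it and 0 WT and 3 KO barcodes just above it. The Leydig limit had 0 WT and 2 KO members at 40 to 59 UMIs and 0 WT and 1 KO barcode at 60 to 79.

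**Figure D1:**
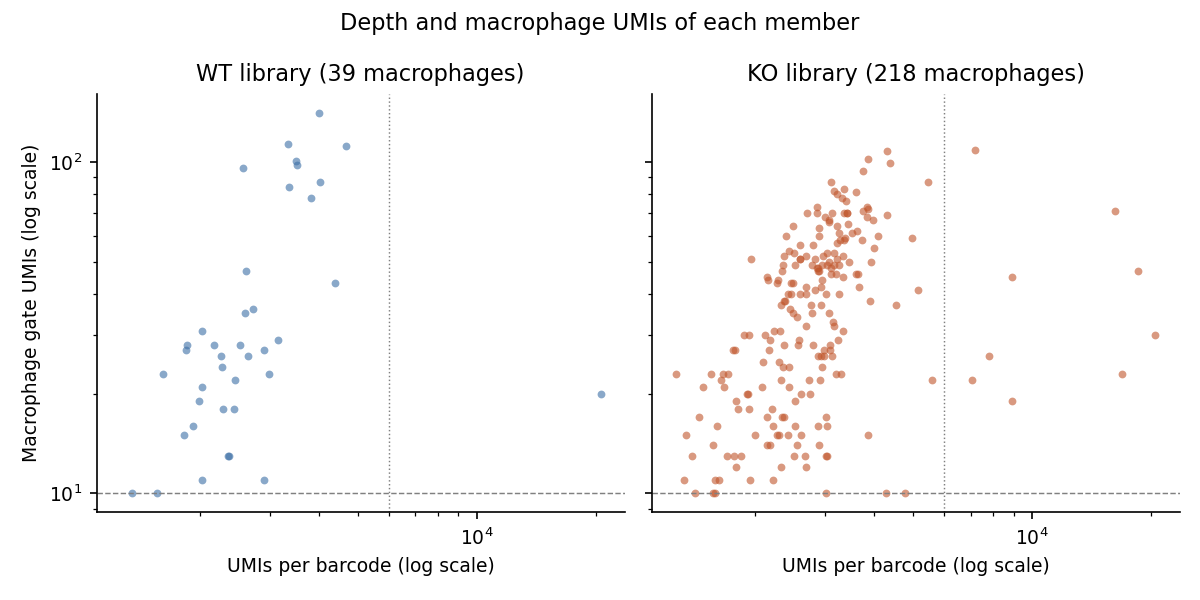
UMIs per barcode (log scale) against the summed UMIs of the 8 gate genes (log scale) for each macrophage, with the WT library on the left and the KO library on the right. The dashed line is the limit of 10 gate UMIs and the dotted line 6000 UMIs, above which lie 1 WT and 9 KO members.

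Of 6 macrophage markers, 5 (C1qa, C1qb, Csf1r, Lyz2 and Mrc1) entered the rule, so their levels are a description. C1qa, a chain of the complement starter C1q, was at 3239 CPM in WT (2927 to 3576) and 2657 CPM in KO (2537 to 2782). Lyz2, the myeloid lysozyme, was at 3528 CPM (3202 to 3879) and 3970 CPM (3823 to 4121), and Csf1r, the receptor for the macrophage growth factor CSF1, at 495 CPM (377 to 637) and 577 CPM (522 to 636). Mrc1 was at 371 CPM (271 to 496) in WT and 362 CPM (319 to 410) in KO. Cd163, the haemoglobin-haptoglobin scavenger receptor, is the marker that the rule did not use, and it went against the label in WT. It gave 1 UMI in WT (8.24 CPM, 0.209 to 45.9) and 52 in KO (75.0 CPM, 56.0 to 98.4), a log2 ratio of KO over WT of 3.19 (0.64 to 8.52). After thinning each barcode to 1500 UMIs, 0 of 38 WT members (0 to 9.25%) and 21 of 211 KO members (9.95%, 6.27 to 14.8) still had a Cd163 UMI. Cd163 was therefore sparse among macrophages of both libraries. The lymphatic and macrophage receptor Lyve1 gave 0 UMIs in the 39 WT members (up to 24.7 CPM) and had a UMI in 3 of 218 KO members.

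Genes outside the gate that stood out most in both libraries are a description, since the gate chose the cells by gene levels. Of 6151 genes with at least 20 UMIs, 898 (14.6%) were at least 4-fold above all other kept barcodes of the same library in both, counting a group at 0 as 3 UMIs. Of them 889 had a UMI in WT members, and 9 had 0 and passed on the WT side through that floor alone. The 25 leading ones hold purinergic receptors (P2ry12, P2ry13), chemokines (Ccl2, Ccl9, Ccl24), lectin and immunoglobulin-like receptors (Clec4n, Clec12a, Clec4a3, Clec5a, Lilrb4a, Lilr4b, Cd300ld, Sirpa, Fcgr4), inflammatory genes (Nlrp3, Il1b, Osm, C5ar1) and Gpr34, Plek, Lpl, Ms4a7, Cx3cr1, Dab2 and Lyz1. Dab2, an endocytic adaptor, was at 561 CPM (435 to 711) in WT macrophages and 437 CPM (389 to 489) in KO, against 0.232 and 3.82 CPM in the other barcodes. Clec4n, an Fc-receptor-coupled lectin, was at 297 CPM (208 to 411) and 368 CPM (324 to 416), against 0.141 and 2.90 CPM. Levels outside macrophages were thus higher in the KO library for both. Lyz1 entered on KO UMIs alone, since it gave 0 UMIs in WT members, and its reads can be split with its near-identical copy Lyz2, as can those of the copies Lilrb4a and Lilr4b.

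Macrophages were 0.229% (0.163 to 0.313) of kept WT barcodes and 1.23% (1.07 to 1.40) of kept KO barcodes. The share was 5.37-fold higher in KO (3.80 to 7.76), or 2.42 on the log2 scale. The share is relative to all barcodes of a library, so fewer germ cells and more macrophages cannot be told apart. The lowest barcode held 943 UMIs in WT and 1246 in KO, and among barcodes with at least 3000 UMIs the log2 ratio was 2.29 (1.38 to 3.34).

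MHC class II split the macrophages of both libraries into cells with many and cells with few UMIs. UMIs were summed over H2-Aa and H2-Ab1 (whose products pair in the I-A molecule), H2-Eb1 (a chain of I-E) and Cd74 (the invariant chain). The sum had a median of 61 in WT members (lowest 0, upper quartile 97). In KO members the median was 6 (lowest 0, upper quartile 63.8), and the highest sum of all was in a KO member. Members were described in 3 ranges of this sum, low (under 5 UMIs), middle (5 to 19) and high (at least 20), with members over 6000 UMIs left out. These ranges were set after the values were seen, and they are ranges, not cell types. WT had 15 low, 3 middle and 20 high members of 38, and KO had 97, 33 and 79 of 209. Near the upper limit, 2 WT and 15 KO members held 10 to 19 UMIs and 0 and 7 held from 20 to under 40, so the limit cut through a thinly filled stretch in WT and a fuller one in KO. The high range was 52.6% (35.8 to 69.0) of WT and 37.8% (31.2 to 44.7) of KO members, a log2 ratio of -0.48 whose interval (-1.20 to 0.31) holds 0. Median UMIs per member were 3338 (low) and 2362 (high) in WT, and 2879 and 2671 in KO.

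**Figure D2:**
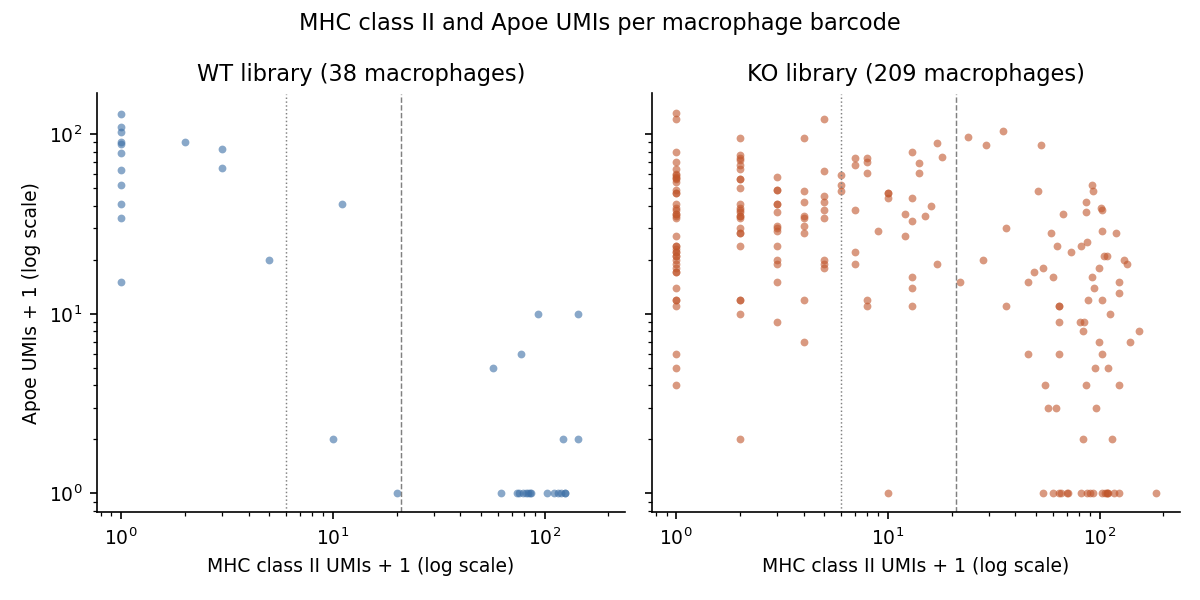
Summed UMIs of 4 MHC class II genes plus 1 (log scale) against Apoe UMIs plus 1 (log scale) for each macrophage of at most 6000 UMIs, WT on the left (38) and KO on the right (209). The dotted and dashed lines mark the lower and upper limits of the middle range, and 17 of 20 high-range WT members but 28 of 79 high-range KO members have fewer than 5 Apoe UMIs.

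In both libraries the low range carried more of the resident tissue macrophage genes, and of other macrophage genes as well. Of 804 genes measured between the WT ranges, 137 (17%) were called higher in the high range and 105 (13.1%) lower, where a call means a ratio of at least 1.5-fold whose interval leaves out 1. In KO 197 of 4287 genes (4.6%) were called higher and 284 (6.62%) lower. All 13 measured resident macrophage genes were lower in the WT high range, with a median log2 ratio of -3.92. That median is a bound, since its gene, F13a1, gave 0 UMIs there and was set to 3. Genes with 0 or 1 UMIs there, such as Stab1, Cbr2, Folr2 and Mrc1, passed the minimum of 20 UMIs through the low range. In KO 13 of 16 were lower and 1 higher, with a median of -1.40. The gate and lysosomal lists also had genes lower in the high range, with 0 higher. Of the gate genes, which the selection used, 7 of 7 were lower in WT and 2 of 8 in KO. For lysosomal genes it was 11 of 18 and 11 of 20. The Fc receptor list had 4 of 5 lower and 0 higher in WT, and 2 of 10 lower and 1 higher in KO. For lipid handling genes it was 3 of 3 lower in WT, and 5 of 9 lower and 1 higher in KO. Median gate UMIs per member were 84 (low) and 23.5 (high) in WT, and 46 and 28 in KO. The free RNA estimate was 36.5% (low) and 51.0% (high) in WT, and 52.2% and 51.1% in KO. Apoe, the lipid carrier that macrophages secrete, was at 24034 CPM (22600 to 25535) in the WT low range and 587 CPM (393 to 844) in the high range. In KO the same levels were 13610 CPM and 5850 CPM (5536 to 6177). Mrc1 went from 964 CPM (695 to 1303) to 20.3 CPM (1 UMI) in WT and from 588 to 212 CPM in KO. The folate receptor Folr2, the scavenger receptor Stab1, the coagulation factor gene F13a1 and the carbonyl reductase Cbr2 gave 0 UMIs in the 20 high-range WT members, and were at 459, 987, 918 and 849 CPM in the low range. In KO these 4 genes were at 31.5, 135, 131 and 171 CPM in the high range and at 339, 711, 726 and 752 CPM in the low range.

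Il1b, Cd14 and some chemokine genes were higher in the high range of both libraries. Il1b, the cytokine interleukin 1 beta, was at 45.9 CPM (2 UMIs) in the WT low range and 4943 CPM (4342 to 5603) in the high range, and at 48.4 and 2506 CPM (2302 to 2723) in KO. The chemokine Ccl4 was at 253 and 7637 CPM in the WT low and high ranges, and at 220 and 1203 CPM in the KO ones. Cxcl2, a neutrophil attractant, went from 230 to 3889 CPM in WT and from 96.8 to 1226 CPM in KO. Cd14, the co-receptor for bacterial lipopolysaccharide, went from 45.9 to 1519 CPM and from 67.0 to 541 CPM. Of the 19 genes of the inflammatory cytokine list only 5 were measured in WT, of which 4 were higher in the high range. In KO 10 were measured, of which 6 were higher in the high range and 1, Tnf, was lower. The chemokine list went both ways, with 4 of 9 higher and 4 lower in WT and 6 of 13 higher and 2 lower in KO. The peptide loader H2-DMb1, which did not enter the MHC class II sum, gave 1 UMI in the low range and 385 CPM (232 to 601) in the high range of WT, and was at 37.2 and 415 CPM (334 to 508) in KO. Mgl2, a C-type lectin, gave 0 UMIs in the WT low range and 608 CPM (410 to 868) in the high one, and 11.2 and 315 CPM in KO. Il1b, Cd14, H2-DMb1 and Mgl2 gave between 0 and 2 UMIs in the WT low range. In WT they thus passed the minimum of UMIs through the high range, where H2-DMb1 gave 19 UMIs and Mgl2 30.

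**Figure D3:**
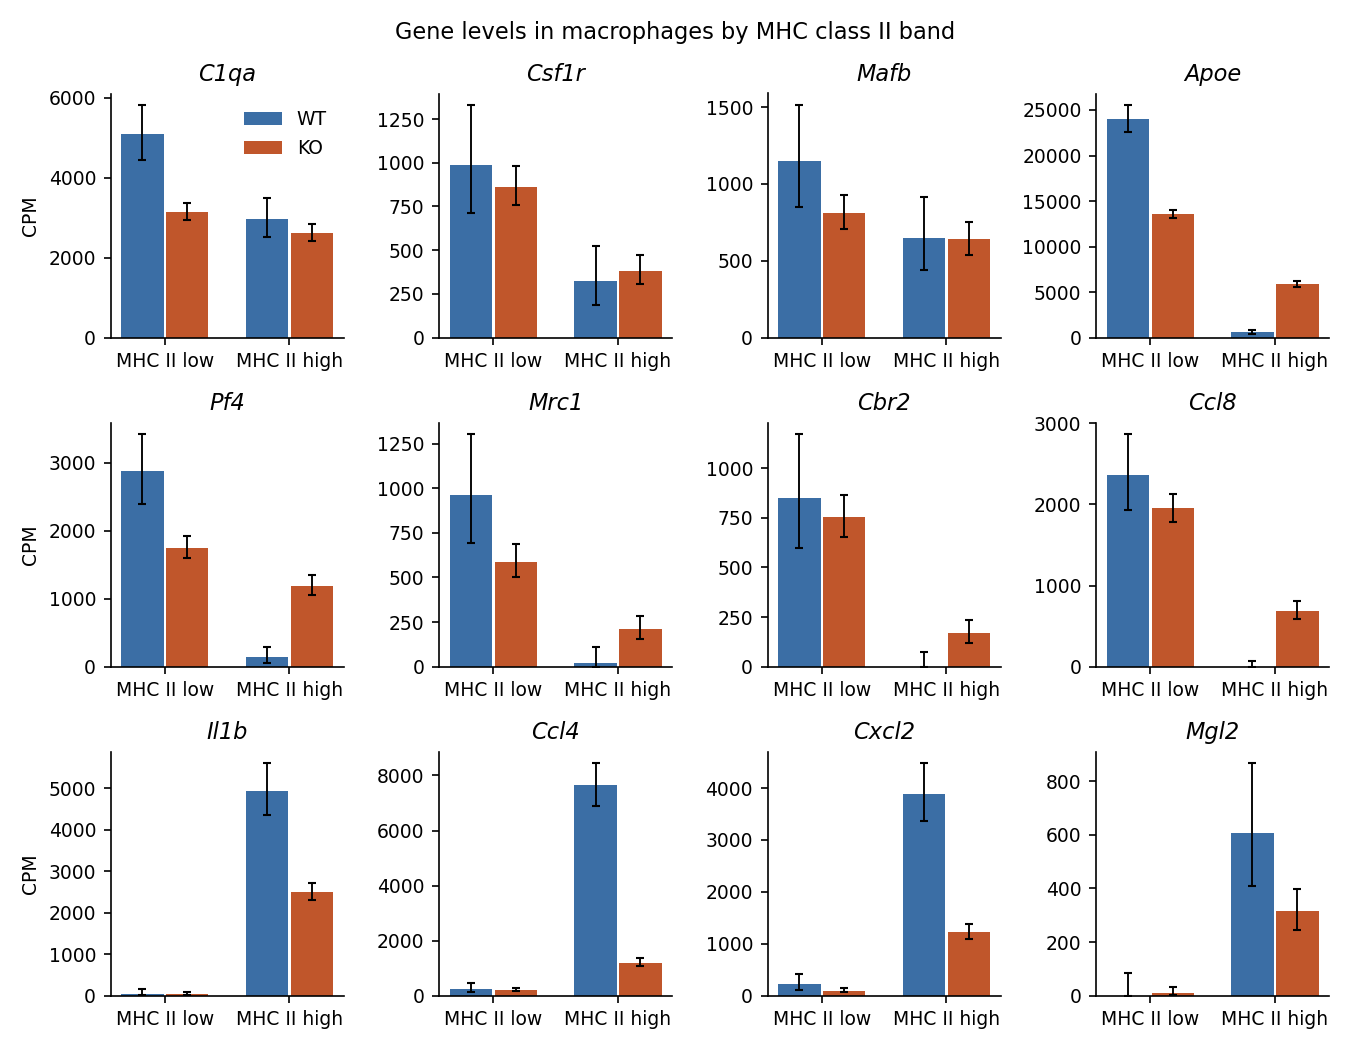
Levels (CPM, linear axes from 0) of 12 genes in macrophages with few (under 5) and many (at least 20) MHC class II UMIs, as bars for the WT and KO libraries with exact 95% Poisson intervals. Apoe, Pf4, Mrc1, Cbr2 and Ccl8 are higher in the low range of both libraries, and Il1b, Ccl4, Cxcl2 and Mgl2 in the high range, where the WT bars stand above the KO ones.

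Over all members, 5 of 14 measured chemokine genes, 5 of 10 inflammatory cytokine genes and 5 of 7 MHC class II genes were lower in KO than in WT, while none of the 8 gate genes was called. Of 6151 genes, 160 (2.6%) were called higher in KO and 166 (2.7%) lower, and the median log2 ratio of all genes measured was 0.07. With a trimmed mean (TMM) scaling the counts were 110 higher and 222 lower, so the split between directions depends on the scaling.

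Ccl4, Ccl3 and Cxcl2 led the chemokine genes. Ccl4 was at 3619 CPM in WT (3288 to 3974; 439 UMIs in 20 of 39 members) and 496 CPM in KO (344 UMIs in 55 of 218 members), a log2 ratio of -2.87 (-3.07 to -2.66). Its neighbour gene Ccl3, also a chemokine, was at 1649 CPM and 309 CPM, a log2 ratio of -2.42 (-2.70 to -2.13). Cxcl2 was at 1863 CPM (1628 to 2122) and 475 CPM, a log2 ratio of -1.97 (-2.22 to -1.72). No single member held over 16.8% of the WT UMIs of these 3 genes. The 14 measured chemokine genes as a list held 5 lower (Ccl2 and Cxcl16 besides these), 2 higher (Ccl5 and Ccl7) and a median of -0.02. Ccl7, a monocyte attractant, was at 140 CPM (17 UMIs, 52.9% of them in 1 member) in WT and 283 CPM in KO. Ccl5 gave 0 UMIs in WT and 30 in KO, of which 60% were in 1 member. Ccl2 was called lower at -0.82 (-1.24 to -0.38), and with the member holding most UMIs left out of each library it was at -0.49 and not called.

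The inflammatory cytokine list had 5 of 10 measured genes lower, 0 higher and a median of -0.85. Il1b was at 2242 CPM (1984 to 2525) in WT and 866 CPM (798 to 938) in KO, a log2 ratio of -1.37 (-1.58 to -1.16). Cd14 was at 676 CPM (538 to 839) and 212 CPM, or -1.67 (-2.07 to -1.26), and Nfkbia, the inhibitor that NF-kappa B induces against itself, was at -1.33 (-1.68 to -0.97). Tnf (-0.98, -1.57 to -0.35) and Nfkbiz (-0.87, -1.39 to -0.32) were also lower. After thinning to 1500 UMIs, an Il1b UMI was found in 60.5% of WT members (43.4 to 76.0) and 33.2% of KO members (26.9 to 40.0), and in 0.348% and 0.676% of the lowest decile of barcodes. A Cd14 UMI was found in 52.6% (35.8 to 69.0) and 23.7% (18.1 to 30.0), against 0.0581% and 0.225% there.

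The MHC class II list had 5 of 7 measured genes lower in KO and a median of -0.61. With free RNA subtracted 2 of 7 were lower, with a median of -0.38. The subtraction took 39.0% of WT and 47.1% of KO UMIs, which raises the KO over WT ratios of genes low in free RNA. A call lost under it is therefore not particular to this list. H2-Eb1 also lost its call without the top member of each library. Cd74 was at 9018 CPM in WT (8491 to 9568) and 5358 CPM in KO (5187 to 5533), a log2 ratio of -0.75 (-0.85 to -0.65). H2-Ab1 was at -0.89 (-1.07 to -0.71), H2-Aa at -0.61 (-0.77 to -0.45) and H2-Eb1 at -0.59 (-0.78 to -0.39), and Ctss, the protease that trims the invariant chain, was at -0.85 (-1.13 to -0.56). The peptide loaders H2-DMa (interval -0.71 to 0.79) and H2-DMb1 (-0.70 to 0.76) had no call. The share of members with any MHC class II UMI after thinning was 68.4% (51.3 to 82.5) in WT and 70.6% (64.0 to 76.7) in KO, against 1.63% and 7.43% of the lowest decile of barcodes.

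**Figure D4:**
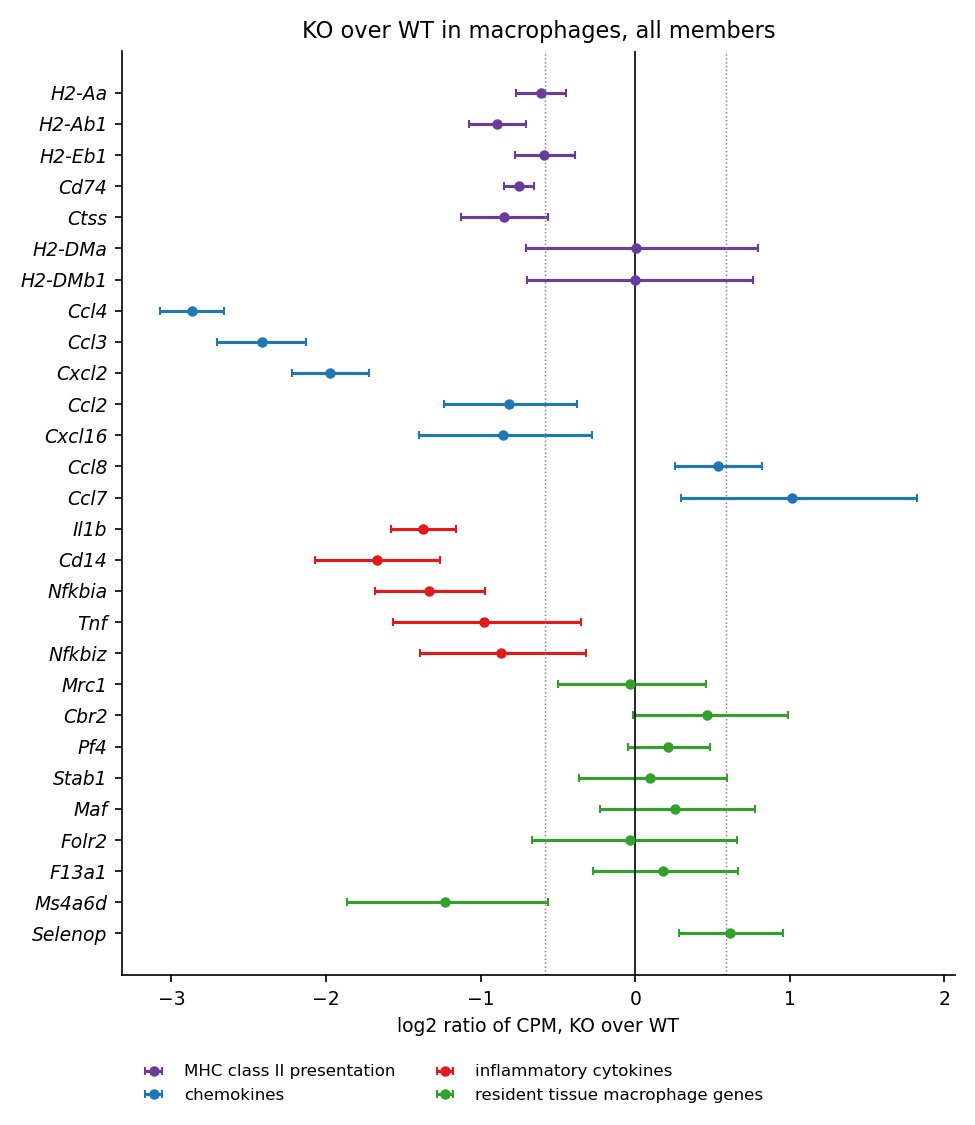
Log2 ratios of CPM, KO over WT, over all macrophages for 28 genes of 4 lists, with exact conditional 95% intervals. Dotted lines mark 1.5-fold either way. Intervals wholly below the lower line include those of Ccl4, Ccl3, Cxcl2, Cd14, Il1b, Nfkbia, H2-Ab1 and Cd74. Of the resident genes shown only Selenop is called higher and only Ms4a6d lower.

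The interferon response list had 4 of 9 measured genes lower and 0 higher, with a median of -0.75. Its lead was Ifi27l2a, at 1236 CPM (1046 to 1451; 28 of 39 members) in WT and 322 CPM (281 to 367; 103 of 218 members) in KO, a log2 ratio of -1.94 (-2.25 to -1.63). Ifitm2 (-0.75), Ifitm3 (-0.78) and Irf7 (-1.93, 8 WT UMIs) were the others, while Isg15 gave 3 WT UMIs and no call. Of the immediate early genes, which respond within minutes to stimuli and to tissue digestion, 3 of 17 were lower (Zfp36 at -1.14, Nr4a1 at -0.73 and Atf3 at -0.67) and 1 was higher (Fosb at 0.77). Of 21 lysosomal genes 3 were lower, among them the proteases Ctss and Ctsc.

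The resident macrophage list had 2 of 16 measured genes higher (Cd163, whose call is lost after thinning to 1500 UMIs, and the selenium carrier Selenop, at 0.61, 0.29 to 0.96), 1 lower (Ms4a6d, at -1.23, -1.86 to -0.57) and a median of 0.05. Pf4 was at 1138 CPM (956 to 1344) in WT with a log2 ratio of 0.21 (-0.05 to 0.48). Apoe was at 9207 CPM (8675 to 9764) in WT with a ratio of 0.05 (-0.04 to 0.14). The gate genes had a median of -0.14. Yet the cells holding these transcripts differed in number: after thinning, an Apoe UMI was found in 55.3% of WT members (38.3 to 71.4) and 89.6% of KO members (84.6 to 93.3), and a Pf4 UMI in 42.1% (26.3 to 59.2) and 70.1% (63.5 to 76.2). The lowest decile of barcodes had an Apoe UMI in 3.43% and 14.1%, at 39.6 and 149 CPM. Apoe UMIs were thus spread over a smaller share of members in WT than in KO.

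Of the 10 genes ranked highest in KO over WT by the interval bound nearest to 1, among genes whose KO level was at least 2 times that of the lowest decile of barcodes (among them Hspb1, Gbp7, Pla2g2d, Cd163, Lyz1, Ddx42, Ccl5, Rnf150 and Fosl2), 9 rested on 0 or 1 WT UMIs. That limit left out Leydig and Sertoli markers such as Insl3, Cyp17a1, Clu and Defb19, which were also called higher in KO. Pla2g2d, a secreted phospholipase of resident macrophages and dendritic cells, gave 1 and 52 UMIs, in 1 and 36 members, a log2 ratio of 3.19 (0.64 to 8.52). Fosl2, an AP-1 transcription factor subunit, was the one of these 10 with more, at 90.7 CPM (45.3 to 162) in WT and 214 CPM (181 to 251) in KO, a ratio of 1.24 (0.35 to 2.27), which after thinning was 0.89 and not called. For Hspb1, 42.9% of the KO UMIs lay in 1 member. Among the 10 ranked lowest stood Fxyd5, a regulator of the sodium pump, at 882 CPM (723 to 1066) in WT and 252 CPM (216 to 293) in KO. Plac8 was also among them at -2.21, but 88.2% of its 17 WT UMIs lay in 1 member, and without the top member of each library it was at 0.042 (-2.13 to 3.24).

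Within the high MHC class II range 5 of 9 inflammatory cytokine genes were lower in KO and 0 higher, 9 of 11 resident genes were higher, and the chemokine genes went both ways, with 5 of 12 lower and 5 higher (median 0.39). Of 2467 genes measured there, 77 (3.12%) were called higher and 79 (3.2%) lower. Of the immediate early genes 4 of 17 were lower in KO there and 0 higher, with a median of -0.37. Ccl4 was at -2.67 (-2.90 to -2.44), Ccl3 at -2.45 (-2.77 to -2.12), Cxcl2 at -1.67 (-1.94 to -1.39), Cd14 at -1.49 (-1.92 to -1.05) and Il1b at -0.98 (-1.20 to -0.76). Nfkbia was at -1.35 (-1.78 to -0.91). Ccl2, Cxcl16, Tnf and Nfkbiz were the others lower, and the higher chemokine genes (Pf4, Ccl8, Ccl7, Ccl5 and Ccl6) had between 0 and 7 WT UMIs each. Pf4 stands in both the chemokine and the resident list. Apoe was the other way, at 3.32 (2.79 to 3.90), as were Pf4 at 3.07 (2.01 to 4.40) and Lyz2 at 1.35 (1.01 to 1.71). The monocyte attractant Ccl8 gave 0 UMIs in 20 WT members and 153 in 79 KO members, at least 3.50 higher on the log2 scale against a floor of 3 UMIs. Of the 9 resident genes that were higher, with 0 lower, Mrc1, Maf, Ms4a7 and Ms4a6c rested on 1 WT UMI each and Cbr2, Stab1 and F13a1 on 0, so they passed the minimum of 20 UMIs through KO. C1qa was at -0.18 (-0.45 to 0.09). The free RNA estimate was 51.0% in WT and 51.1% in KO in this range.

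Counted by member, 5 of 20 high-range WT members (25%, 8.66 to 49.1) and 52 of 79 KO members (65.8%, 54.3 to 76.1) held at least 5 UMIs of the resident list. At least 5 Apoe UMIs were held by 3 WT members (15%, 3.21 to 37.9) and 51 KO members (64.6%, 53.0 to 75.0). The 28 KO members with fewer than 5 Apoe UMIs were set beside the 17 such WT members, a split chosen after the values were seen. Ccl4 was at 7282 CPM (6493 to 8141) in these WT members and 1165 CPM (939 to 1429) in the KO ones, a log2 ratio of -2.64 (-3.00 to -2.30). In the 51 KO members with more Apoe it was at 1224 CPM (1050 to 1420), so its KO level was alike in both. Il1b was at 5020 CPM (4368 to 5741) in the 17 WT members, 3419 CPM (3024 to 3853) in the 28 KO members and 2001 CPM (1776 to 2247) in the 51. Its KO over WT ratio among the members with little Apoe was -0.55 (-0.82 to -0.29), short of 1.5-fold. The gate genes also differed between these subsets, with C1qa lower in KO at -0.81 (-1.17 to -0.44) and Lyz2 higher at 0.74 (0.28 to 1.22). Ccl8 gave 0 UMIs in the 17 and in the 28, and 1070 CPM (908 to 1254) in the 51. Mrc1 was at 63.3 CPM (5 UMIs) in the 28 and 294 CPM (212 to 397) in the 51, while H2-Aa was at 6750 CPM (6189 to 7348) and 5891 CPM (5500 to 6303). The 3 WT members with at least 5 Apoe UMIs gave 0 UMIs of Pf4, Cbr2 and Ccl8.

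Within the low MHC class II range the KO library was lower in genes of many lists, interferon, lysosomal and complement genes among them. Of 3023 genes 104 (3.44%) were called higher and 142 (4.7%) lower. Of the measured list genes, 3 of 5 interferon, 11 of 20 lysosomal and 5 of 9 complement genes were lower and 0 higher. The 5 complement genes include the gate genes C1qa, C1qb and C1qc, which the selection itself used. Chemokine (5 of 11), Fc receptor (3 of 7) and lipid handling genes (3 of 7) were also lower, with 0 higher. Of 16 resident genes 5 were lower and 1 higher. The free RNA estimate was 36.5% in WT and 52.2% in KO here, and the ratios were also taken with the lowest-decile profile, scaled to the spermatid UMIs of each group, subtracted. Because more was taken from KO, this raised the log2 ratios of 1248 genes by a median of 0.38, and by 0.47 for genes at 0 UMIs in the lowest decile, so a call lost or gained under it is not particular to a gene or list. Over all genes the calls went from 142 to 55 lower and from 104 to 94 higher. Ifi27l2a was at 2479 CPM in WT and 380 CPM in KO, a log2 ratio of -2.71 (-3.11 to -2.30), and at -2.25 (-2.66 to -1.85) after subtraction. Ms4a6d, a membrane protein of the MS4A family, was at -1.97 (-2.71 to -1.20), and at -1.50 (-2.24 to -0.73) after it. The lysosomal list had a median of -0.75, and of -0.30 after subtraction. The protease Lgmn stayed called, going from -1.26 (-1.70 to -0.80) to -0.80 (-1.25 to -0.34), whereas Ctsb and Ctsd went from -1.03 and -1.02 to -0.58 and -0.57. Of the 8 gate genes 5 were lower. Apoe (-0.82, -0.92 to -0.72) went to -0.36 and C1qa (-0.69, -0.91 to -0.47) to -0.23, neither of them called any more.

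Immediate early genes stood the other way in the low range. Of 17 genes 4 were called higher in KO (Atf3, Ier2, Btg2 and Ier3) and 1 lower (Zfp36), before any subtraction. Atf3, a stress-induced transcription factor, was at 207 CPM (9 UMIs) in WT and 637 CPM in KO, a log2 ratio of 1.62 (0.67 to 2.78). In the high range the same gene was lower in KO, at 1236 and 599 CPM (-1.04, -1.49 to -0.58). Between the ranges, 9 of 16 immediate early genes were higher and 1 lower in the high range of WT. In that of KO 6 of 17 were higher and 5 lower. Whether they and the inflammatory genes share a cause was not tested. Cd163 gave 1 UMI in the 15 WT members and 40 in the 97 KO members of the low range.

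Markers of other cells were also read beside their level in free RNA, and their part in the results was not tested. The 10 Leydig markers summed to 239 CPM in WT macrophages and 851 CPM in KO, and to 131 and 841 CPM in the lowest decile of barcodes. Of 6 measured 5 were called higher in KO (Insl3, Cyp17a1, Cyp11a1, Fabp3 and Agt), at levels near those of the lowest decile. The 12 Sertoli markers summed to 190 and 716 CPM in macrophages, against 257 and 654 CPM there. B lineage markers summed to 90.7 and 170 CPM, against 9.60 and 53.8 CPM, and T and NK markers to 65.9 and 66.4 CPM, against 57.0 and 71.1 CPM. Most B lineage UMIs were of Ighm, the immunoglobulin heavy chain mu gene, with 10 in WT (in 10 members) and 87 in KO (in 60 members), at 82.4 and 126 CPM against 0 and 10.4 CPM in the lowest decile. The defining genes Cd79a, Ms4a1, Vpreb1 and Igll1 gave between 0 and 2 UMIs in either library, and Cd79b 0 and 7. Dendritic cell markers gave 4 and 31 UMIs in all, granulocyte and mast cell markers 2 and 7, endothelial markers 1 and 22, and mesenchymal markers 0 and 19. Ccr2, the receptor of blood monocytes, had a UMI in 1 of 38 WT (2.63%) and 7 of 211 KO (3.32%) thinned members. Summed together, the T and NK, B lineage, endothelial, smooth muscle and myoid, and mesenchymal markers gave at least 5 UMIs in 0 WT and 15 KO members.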

How the data were processed

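The authors deposited 1 matrix per library of raw UMI counts per gene and barcode, made with Cell Ranger 2.2.0 and STAR on mm10 per the submitters' processing notes, while the file headers carry software version 3.1.0. The sources used here do not say how barcodes were called as cells. The members and the 30 gene lists were chosen with earlier results of these data known. Raw counts were summed over members of each library and given as CPM with exact Poisson intervals. Shares have Clopper-Pearson intervals, and ratios of sums have exact conditional binomial intervals (scipy 1.17.1). A gene was measured with at least 20 UMIs in both groups together, and called at 1.5-fold or more with an interval that leaves out 1. Calls describe 2 libraries, not genotypes. A group at 0 was set to 3 counts. Named genes were the gate and marker genes, the Igf2bp family, the 25 leading genes over other barcodes, the 10 highest and 10 lowest ratios, and up to 5 of each list with the most UMIs. Other genes named were chosen after their values were seen. Alternatives changed the gate, limits, scaling (TMM, edgeR 4.0.16), depth (1500 UMIs) and free RNA. Scripts were tested on simulated counts. Some genes are not reported here.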

Additional observations from a re-analysis of the deposited data

Results flagged for a closer look

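A signal outside the barcodes compared above was a set of KO barcodes that passed the limit of 10 gate UMIs and were left out for their spermatid or Leydig UMIs. There were 138 in KO (0.780% of kept barcodes, 0.655 to 0.920) and 1 in WT (0.00588%, 0.000149 to 0.0328). The KO ones had a median of 10053 UMIs, 13 gate UMIs, 669.5 spermatid UMIs and 18 Leydig UMIs, where free RNA at the level of the lowest decile of barcodes would give a median of 1.05 gate UMIs. Of them 25 were over the Leydig limit. They were not used in any comparison, and whether they hold macrophage RNA beside that of another cell was not tested.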

How the results depend on the processing

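No paired analysis was possible because each genotype has 1 library. The share of macrophages kept its direction under all 8 alternatives (log2 ratio 2.29 to 2.59). The count of genes higher in KO went from 160 to 78 with members thinned to 1500 UMIs and to 286 with free RNA subtracted, and stood at 110 with TMM and 113 with median-of-ratios scaling. The count lower went from 166 to 104 with thinning, 97 with a minimum of 50 UMIs and 108 with a fold limit of 2, and stood at 222 and 210 with the other scalings. Thinning and the higher minimum leave fewer UMIs or genes, and for the rest the cause was not tested. The MHC class II list median went from -0.61 to -0.38 with free RNA subtracted. Because more was taken from KO (47.1% of UMIs) than from WT (39.0%), that move is not particular to the list. The KO share of members with an MHC class II UMI was 79.8% without thinning. Of the single genes named by rule, 19 lost their call under thinning (Cd163, Fosl2, Lyz1 and Ccl5 among them) and 3 gained one. Without the top member of each library Plac8 reversed to 0.042, and 8 lost their call, C5ar1, Lyz1, Ccl2, Hspb1, Ccl5, H2-Eb1, Ifitm3 and Cst12, while 8 gained one. With free RNA subtracted, H2-Ab1 lost its call in the high range, and Apoe, Pf4, C1qa, Ctsb, Ctsd and Wfdc17 in the low range. Depth limits the WT side most, since 39 members hold 121316 UMIs and ratios that rest on few WT UMIs have wide intervals. The minimum of 20 UMIs over both libraries is a chosen setting.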

Other observations

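Cells with many MHC class II UMIs also lay below the gate. Among kept barcodes with fewer than 10 gate UMIs, 9 in WT and 75 in KO held at least 20 UMIs of the 4 MHC class II genes. Without any UMI of a B lineage marker there were 9 and 38, of which 8 and 21 held at least 3 gate UMIs. The gate therefore left out some MHC class II-rich barcodes in both libraries, and these enter no share above.

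The KO library had 33 members in the middle MHC class II range, of which 32 held at least 5 Apoe UMIs and 29 at least 5 resident-list UMIs, with a resident-list level of 8295 CPM. The 3 WT members of that range had a level of 7183 CPM. In the low range these levels were 13153 CPM in WT and 9365 CPM in KO, and in the high range 1236 and 4173 CPM.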
